A study of Mus musculus with 21 samples.

Results

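The mitochondrial genome of the mouse carries 7 genes for subunits of complex I, and their mRNAs were compared between mice reared with and without maternal separation. The 7 mRNAs were mt-Nd1, mt-Nd2, mt-Nd3, mt-Nd4l, mt-Nd4, mt-Nd5 and mt-Nd6, taken by symbol from the 55487 genes listed in the count table. All 7 passed the filter on low counts, which left 18146 genes. Bulk poly-A RNA was sequenced from hippocampi of male wild type C57BL/6 mice aged 10 weeks, 1 library per mouse. In 9 maternally separated (MS) mice, whole nests had been kept from the dam for 4 hr a day on postnatal days 10 to 17, and most of the nesting material had been taken from their home cages during that time. The 12 standard-reared (SR) controls had stayed with the dam.

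Complex I (NADH:ubiquinone oxidoreductase) is the entry enzyme of the respiratory chain, where electrons from NADH pass to ubiquinone while protons are pumped across the inner mitochondrial membrane. The ND proteins form the core of its membrane arm, and all its other subunits come from nuclear genes and are imported. The mitochondrial genome is read from each strand into long precursors that are cut, mostly at tRNAs, into rRNAs and mRNAs. mt-Nd6 is the only protein gene read from the light-strand promoter, and its mRNA in human cells is known to carry no long poly-A tail. Brain tissue draws much of its ATP from this pathway.

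In GRCm38 coordinates of the mitochondrial chromosome (M), the genes lie in the order mt-Nd1 (2751 to 3707), mt-Nd2 (3914 to 4951), mt-Nd3 (9459 to 9806), mt-Nd4l (9877 to 10173), mt-Nd4 (10167 to 11544), mt-Nd5 (11742 to 13565) and mt-Nd6 (13552 to 14070). The first 6 are on the plus strand of the annotation and mt-Nd6 is on the minus strand. Each gene is a single exon without introns. mt-Nd4l and mt-Nd4 share 7 bases on the same strand, and mt-Nd5 and mt-Nd6 share 14 bases on opposite strands. These junctions are shown because reads across them bear on what was counted for each gene. Sequences are from the GENCODE M21 transcripts, written 5′ to 3′ on each gene's own strand, with the shared bases in capitals.
mt-Nd4l, last 30 bases: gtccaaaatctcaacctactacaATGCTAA
mt-Nd4, first 30 bases: ATGCTAAaaattattcttccctcactaatg
mt-Nd5, last 30 bases: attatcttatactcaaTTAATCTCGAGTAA
mt-Nd6, last 30 bases: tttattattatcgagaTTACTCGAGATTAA

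In the first pair, the start codon of mt-Nd4 begins inside the end of mt-Nd4l, so that the reading frames overlap. A single RNA can thus hold both. mt-Nd4l and mt-Nd4 are counted among the 7 mRNAs by gene, and were not shown to be separate molecules. In the second pair, the shared bases hold the stop codons of both genes, which run towards each other. The end of mt-Nd4 is shown as well, since its stop codon is incomplete in the DNA. Its 1378 bases hold 459 codons and 1 further base, the first of a stop codon that the poly-A tail completes. That last base is in capitals here.
mt-Nd4, last 30 bases: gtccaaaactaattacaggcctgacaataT

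The sense sequence of mt-Nd6 differs in composition from the others. It holds 28.1% G and 5.97% C, whereas the other 6 mRNAs hold 8.00% to 11.6% G and at least 22.1% C.

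Library totals ran from 17276810 to 30449055 counts. MS mouse A2 lay apart from the rest on the first component of a PCA, with a score of 27.1 where the other libraries had -12.2 to 11.9. In CPM, a gene's counts scaled to a common normalised library size, A2 held 0.692 of Dsp, which marks dentate granule cells (54.0 to 138 in the rest), and 418 of the striatal gene Penk (13.8 to 135 in the rest). A2 was left out, which leaves 8 MS and 12 SR mice in every value below that does not mention all 21. The animal numbers run in sets of 3, here lettered A, B and C for MS and D, E, F and G for SR, and a mouse is named by its letter and a digit. The methods give litters with 3 males each, so mice of a set may be littermates, but the labels name no nest. The p-values per mouse then measure the spread between mice only.

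The ND mRNAs differed widely in level per length. In SR mice, mt-Nd4 had the highest level at 3857 ± 144 CPM per kb of annotated length (mean ± SD, n = 12), and mt-Nd1 and mt-Nd2 followed with 3070 ± 124 and 2486 ± 106. The levels of mt-Nd6 (2004 ± 135 CPM per kb), mt-Nd5 (1978 ± 104 CPM per kb) and mt-Nd4l (1975 ± 94.8 CPM per kb) lay within their spread of each other. mt-Nd3 had the lowest level at 420 ± 35.8 CPM per kb. mt-Nd4 exceeded mt-Nd1, mt-Nd1 exceeded mt-Nd2 and mt-Nd2 exceeded mt-Nd4l in 20 of 20 mice. Reads that touched the shared bases were counted for neither gene of a pair, as described below. That loss bears more on the 297 bases of mt-Nd4l than on the longer mt-Nd4, and its part in their levels per kb was not tested. mt-Nd6 exceeded mt-Nd5 per kb in 9 of 20 mice, which were 7 of 12 SR mice and 2 of 8 MS mice. The ND mRNAs made up 34.3% ± 0.685 of the counts on the 13 mitochondrial mRNAs in SR mice and 32.8% ± 1.22 (SD, n = 8) in MS mice.

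**Figure D1:**
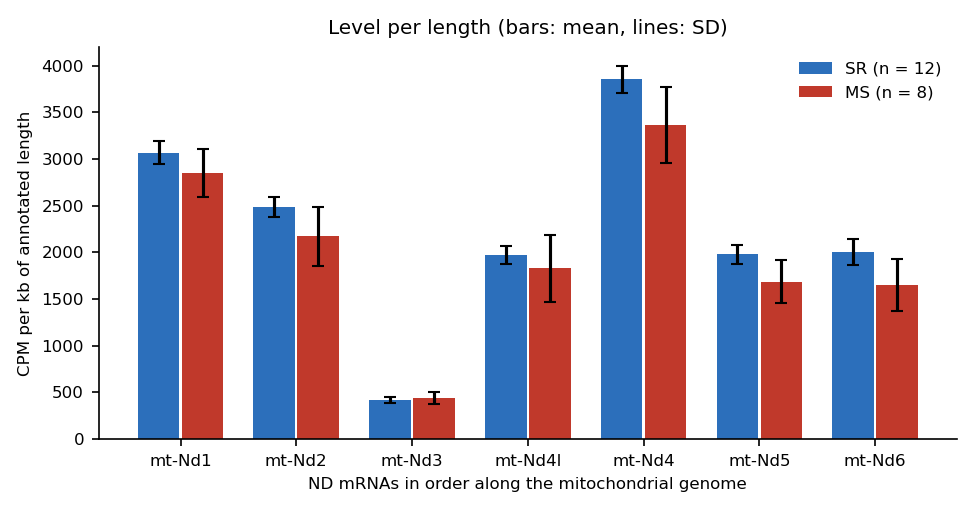
Level of each ND mRNA as CPM per kb of annotated gene length (vertical axis) in SR (blue, n = 12) and MS (red, n = 8) mice, with bars for means and lines for SDs. mt-Nd4 stands highest and mt-Nd3 lowest in both groups, and the MS bars are shorter for every gene but mt-Nd3.

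The question put to each mRNA was whether its level at 10 weeks differed between MS and SR mice. The log2 fold change was below 0 for 6 of the 7 mRNAs, with changes of -17.6% to -7.11%, and above 0 for mt-Nd3 (4.05%). Of all genes tested, 49.7% had a log2 fold change below 0. The quasi-likelihood test of edgeR, adjusted by the Benjamini-Hochberg method over all 18146 genes, called 0 of the 7 at an adjusted p under 0.05, beside 0.0% of all genes called lower and 0.011% called higher. At an unadjusted p under 0.05, 5 of the 7 were lower, beside 4.92% of all genes. The Wald test of DESeq2 on the same 20 libraries called 3 of the 7 lower (mt-Nd4, mt-Nd5 and mt-Nd6), beside 0.28% of the 15351 genes it gave an adjusted p. The median log2 fold change of the 7 was -0.19, and that of all genes tested was 0.00.

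mt-Nd6 encodes a membrane-arm subunit and is the only member on the light strand. It had 711 to 1121 CPM in MS mice (median 852) and 928 to 1180 CPM in SR mice (median 1032). In 6 of 8 MS mice it was below the lowest SR mouse, and C1 had the highest MS value, so that the groups overlapped. Such a count of 6 or more MS mice was reached by 0.54% of all genes tested. Its means were 857 ± 143 (SD, n = 8) and 1040 ± 70.0 CPM (n = 12), a log2 fold change of -0.28 (SE 0.0703). The adjusted p was 0.134 by edgeR and 0.0281 by DESeq2. By edgeR's unadjusted p, 76 genes came before mt-Nd6 in the ranking, of which 20 were lower in MS.

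mt-Nd5 and mt-Nd4 encode large subunits related to antiporters that are counted among the proton-pumping parts of the membrane arm. mt-Nd5 had 2294 to 3674 CPM in MS mice (median 3191) and 3258 to 3873 CPM in SR mice (median 3613). A1 was lowest in MS, C1 followed with 2682 CPM, and 5 of 8 MS mice were below the lowest SR mouse, as for 1.57% of all genes. The log2 fold change of mt-Nd5 was -0.23 (SE 0.0622), with an adjusted p of 0.161 by edgeR and 0.0367 by DESeq2. mt-Nd4 had 3700 to 5775 CPM in MS mice (median 4650) and 5007 to 5639 CPM in SR mice (median 5251). For mt-Nd4, 7 of 8 MS mice lay below all SR mice and the remaining mouse, C2, lay above them all. Only 0.116% of all genes had at least 7 MS mice below the lowest SR mouse. The log2 fold change of mt-Nd4 was -0.20 (SE 0.0543), with an adjusted p of 0.166 by edgeR and 0.0367 by DESeq2.

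mt-Nd2 encodes the third antiporter-like subunit and had the same arrangement of mice as mt-Nd4. It had 1608 to 2827 CPM in MS mice (median 2293) and 2421 to 2730 CPM in SR mice (median 2594), and again 7 of 8 MS mice were below the lowest SR mouse and C2 was above the highest. Its log2 fold change was -0.19 (SE 0.0635, edgeR adjusted p = 0.232, DESeq2 adjusted p = 0.111). mt-Nd1 encodes a subunit at the foot of the membrane arm, where ubiquinone binds. It had 2380 to 3221 CPM in MS mice (median 2695) and 2792 to 3143 CPM in SR mice (median 2925), with 6 of 8 MS mice below the lowest SR mouse. Its log2 fold change was -0.11 (SE 0.0456, edgeR adjusted p = 0.368, DESeq2 adjusted p = 0.242).

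mt-Nd3 and mt-Nd4l encode the smallest ND proteins, and neither passed a threshold. mt-Nd3 had 126 to 190 CPM in MS mice (median 149) and 130 to 179 CPM in SR mice (median 144), with a log2 fold change of 0.06 (SE 0.0662, edgeR adjusted p = 0.787). mt-Nd4l had 377 to 677 CPM in MS mice (median 559) and 547 to 629 CPM in SR mice (median 582), with a log2 fold change of -0.11 (SE 0.0823, edgeR adjusted p = 0.637). For mt-Nd4l, 3 MS mice were below all SR mice, as at least 3 were for 9.4% of all genes, and 2 were above them all. The mice C1 (377 CPM) and A1 (407 CPM) were far below the rest. Without these 2 mice, which were picked after their values were seen, the log2 fold change of mt-Nd4l was 0.02.

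**Figure D2:**
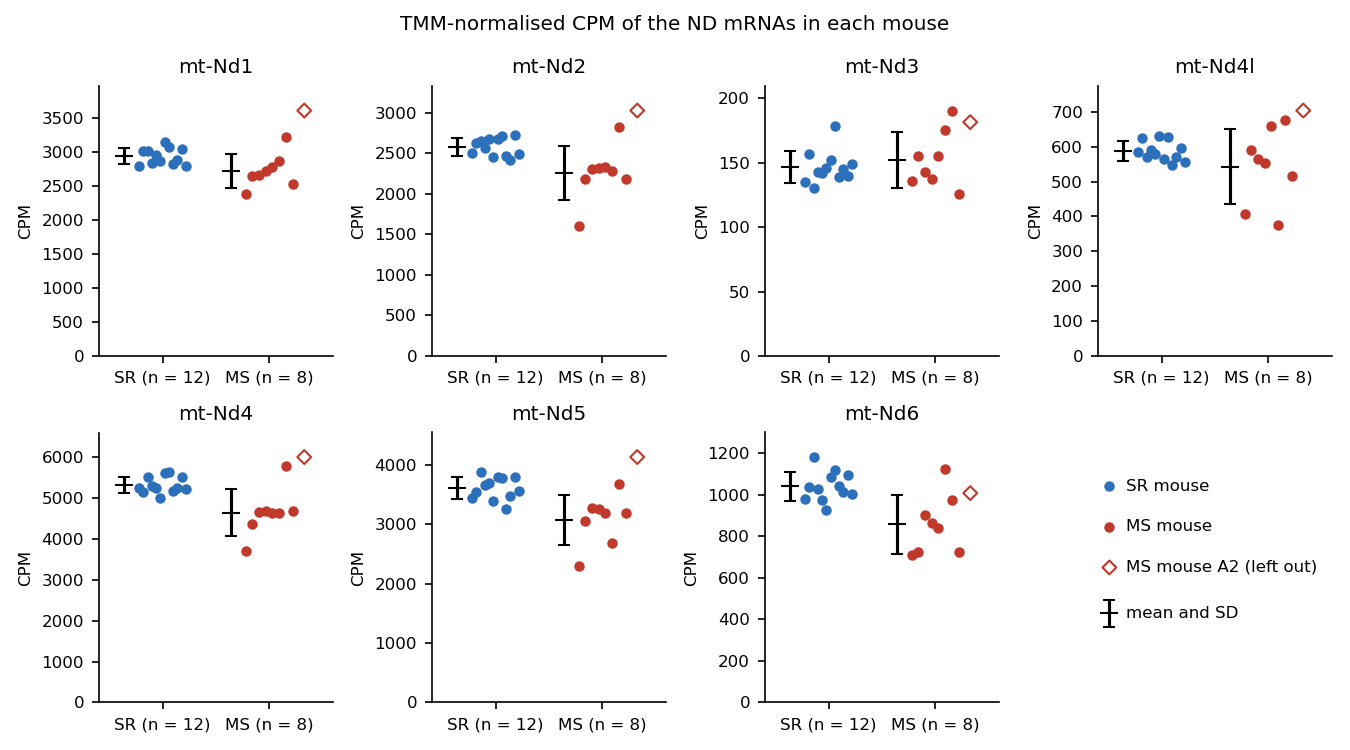
TMM-normalised CPM (vertical axes, from 0) of each ND mRNA in each SR mouse (blue points, n = 12) and MS mouse (red points, n = 8), with black bars for mean and SD and an open diamond for the MS mouse A2 that was left out. Most MS mice lie below the SR points for mt-Nd2, mt-Nd4 and mt-Nd6, the MS points spread more widely than the SR points, and A2 lies at the top of 5 panels.

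In none of the 7 did every MS mouse lie below every SR mouse, which 0.00551% of all genes showed. The levels varied more between MS mice than between SR mice for each of the 7 mRNAs. The coefficient of variation was 9.15% to 19.8% in MS and 3.73% to 8.51% in SR. The share of all genes with a wider spread in MS was not computed, so this cannot be read as particular to the ND mRNAs. Each library held at least 2291 counts of any ND mRNA, which gives a counting error of at most 2.09%. A few animals held the extremes. A1 was the lowest MS mouse for mt-Nd1, mt-Nd2, mt-Nd4, mt-Nd5 and mt-Nd6, and C2 was the highest for all but mt-Nd6. The median deviation of the 7 mRNAs from the SR mean was -0.53 on the log2 scale in A1, 0.13 in C2 and between these in the others. It was below 0 in 7 of 8 MS mice and in 7 of 12 SR mice.

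The results rested on these animals in different ways. Without C2, edgeR called 4 of the 7 mRNAs lower, beside 0.312% of all genes, with adjusted p-values of 0.0444 for mt-Nd2, 0.0307 for mt-Nd4, 0.0444 for mt-Nd5 and 0.0497 for mt-Nd6. Without C1 it called mt-Nd6 alone (adjusted p = 0.0479), which was the only gene called lower in that fit (0.00548%). Without the whole set C it called 5 of the 7 (all but mt-Nd3 and mt-Nd4l), beside 0.695% of all genes. Without A1 the log2 fold change was -0.16 for mt-Nd4, -0.18 for mt-Nd5 and -0.25 for mt-Nd6, and 0 of the 7 were called. With A2 included, these values were -0.15, -0.18 and -0.25, and again 0 were called. A2 had more mt-Nd1, mt-Nd2, mt-Nd4l, mt-Nd4 and mt-Nd5 than any other mouse, with 5998 CPM of mt-Nd4, and 1007 CPM of mt-Nd6. The correlation of log2 CPM with log2 exonic length over genes was 0.450 in C1 and 0.462 in C2. It was 0.469 to 0.487 in SR mice, and B1 (0.492) and C3 (0.491) lay above these. With it as a term, the log2 fold change of mt-Nd6 was -0.31 (edgeR adjusted p = 0.0745). Those of mt-Nd4 and mt-Nd5 were -0.20 and -0.22, and 0 of the 7 were called. Its part in the values of C1 and C2 was not tested.

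**Figure D3:**
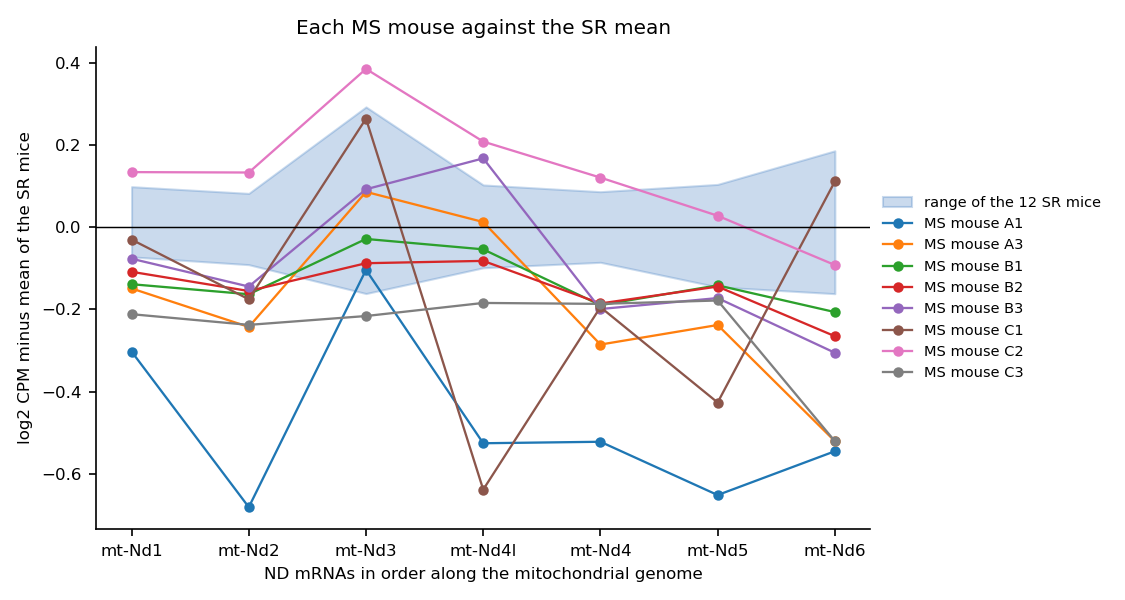
Deviation of each MS mouse (coloured lines, n = 8) from the mean log2 CPM of the SR mice (vertical axis) for the ND mRNAs in genome order (horizontal axis), with the range of the 12 SR mice shaded in blue. A1 is lowest for most genes, C2 lies above 0 for all but mt-Nd6, and C1 is low in mt-Nd4l and mt-Nd5 and above 0 in mt-Nd3 and mt-Nd6.

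By genome position, the log2 fold changes of the last 5 ND genes were in descending order. The values were 0.06 for mt-Nd3, -0.11 for mt-Nd4l, -0.20 for mt-Nd4, -0.23 for mt-Nd5 and -0.28 for mt-Nd6. Upstream, mt-Nd1 had -0.11 and mt-Nd2 had -0.19, so that the order did not hold over all 7. It held under 39 of 41 alternatives, which shared most of their mice and were not independent. mt-Nd5 and mt-Nd4 changed places without set C (-0.26 and -0.27) and without A1 and C1 (-0.14 and -0.15). They also did so within sets A, B, D, E and F (-0.26 and -0.27). Within sets C and G the order did not hold. The values there were -0.13 for mt-Nd4l, -0.08 for mt-Nd4, -0.18 for mt-Nd5 and -0.14 for mt-Nd6. Differences between neighbouring genes were not tested, apart from the ratios given next. The step from mt-Nd4l to mt-Nd4, which overlap on the same strand, may lie within a single RNA. The slope of a mouse's deviations on gene position was negative in 8 of 8 MS mice, between -0.0163 and -0.00183 on the log2 scale per kb, and in 7 of 12 SR mice, between -0.00714 and 0.00828. The slope is a score over the chosen mRNAs and was not tested. Since deviations were taken from the SR mean, the SR slopes cancel out on average by construction, and the MS slopes restate the fold changes above mouse by mouse. It includes mt-Nd6, whose position on the other strand is not a distance along the precursor of the other 6. The order was also not one of all mRNAs, as mt-Cytb, beyond mt-Nd6 on the plus strand, had -0.15. mt-Atp6, which lies before mt-Nd3, had -0.16.

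**Figure D4:**
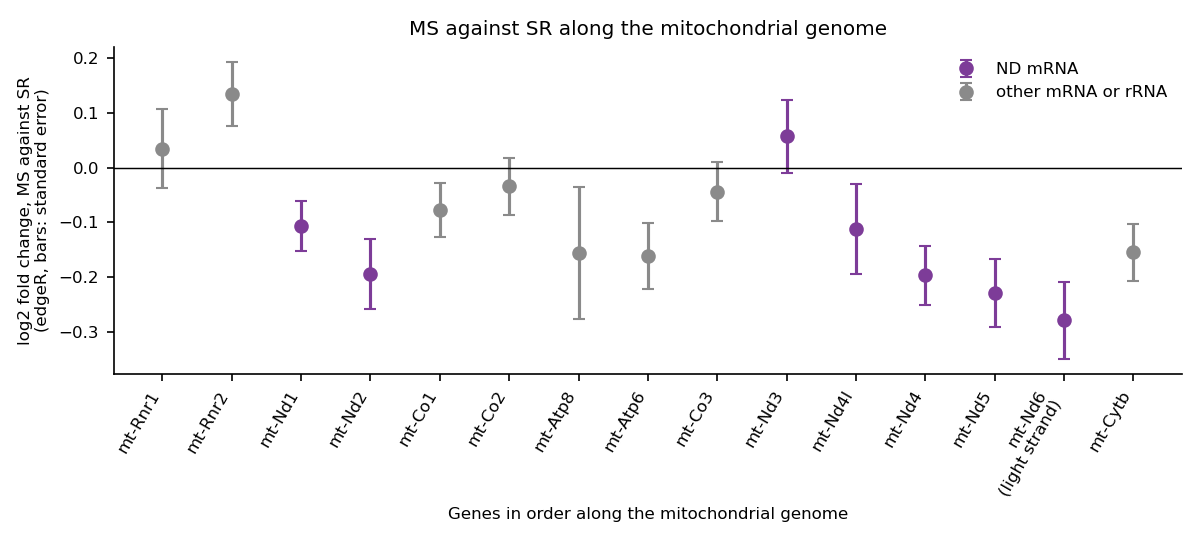
Log2 fold change of MS against SR (vertical axis, edgeR, 8 MS and 12 SR mice) with its standard error for the mRNAs and rRNAs of the mitochondrial genome in genome order (horizontal axis), ND mRNAs in purple and the others in grey. The values of the ND mRNAs decline from 0.06 at mt-Nd3 to -0.28 at mt-Nd6 (light strand), while both rRNAs lie above 0. mt-Cytb, the last gene, stands at -0.15.

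Within a library, the ratio of 2 mRNAs does not depend on scaling, and mt-Nd5 was set against mt-Nd1, a far gene against a near one on the same precursor. The log2 ratio of mt-Nd5 to mt-Nd1 counts was 0.166 ± 0.158 in MS (SD, n = 8) and 0.296 ± 0.0521 in SR (n = 12). It lay below the lowest SR mouse in 4 of 8 MS mice and below the SR median in 7 of 8. The difference of -0.13 had p = 0.00679 in a two-sided exact permutation test over mice, and 0.0136 adjusted over the 2 ratios tested. The lowest values were -0.10 in C1 and -0.05 in A1, and without these 2 mice the difference was -0.05 (exact permutation p = 0.0848). Over the means of the 7 sets it was -0.14, with an exact permutation p of 0.0286, the smallest that 3 against 4 sets can give. The contrast rests on mt-Nd1 as the near gene, with a log2 fold change of -0.11. mt-Nd2, the next ND gene, had -0.19, nearer to the -0.23 of mt-Nd5. The ratio of mt-Nd5 to mt-Nd2 was not tested, so the result is not one of far against near genes in general.

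The light-strand mt-Nd6 was set against mt-Nd5, its neighbour on the heavy-strand side. The log2 ratio of mt-Nd6 to mt-Nd5 was -1.85 ± 0.274 in MS (SD, n = 8) and -1.80 ± 0.0713 in SR (n = 12), a difference of -0.05 (two-sided exact permutation p = 0.564). C1 stood at -1.26, above all SR mice, and 3 of 8 MS mice stood below them, C3 (-2.14), A3 (-2.08) and, by a small margin, B3 (-1.93 against -1.92 in the lowest SR mouse). Without C1 the difference was -0.14 (exact permutation p = 0.0120). That was the smallest p of the 20 exact permutation tests with 1 mouse left out, of which the largest was 0.907.

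**Figure D5:**
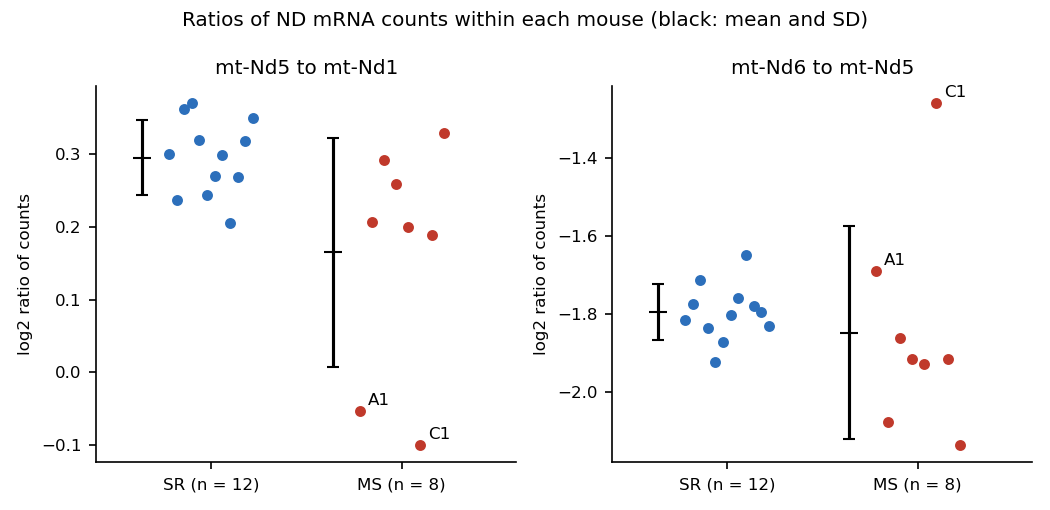
Log2 ratio of counts (vertical axes) of mt-Nd5 to mt-Nd1 (left) and of mt-Nd6 to mt-Nd5 (right) in each SR mouse (blue, n = 12) and MS mouse (red, n = 8), with black bars for mean and SD. A1 and C1 lie below all SR mice in the left panel, and C1 lies above all SR mice in the right panel.

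The ND mRNAs varied together over mice to different degrees. Of the 21 pairs, mt-Nd2 and mt-Nd4 had the highest Pearson correlation of log2 CPM over the 20 mice, with r = 0.958. Spearman's rho was highest for mt-Nd2 and mt-Nd5 (0.917) and was 0.907 for mt-Nd2 and mt-Nd4 (permutation p = 1e-05 for both r and rho of mt-Nd2 and mt-Nd4, the smallest that 100000 permutations can give, adjusted over the 21 pairs 4.2e-05 and 5.25e-05). Their r was 0.930 without the 2 mice farthest from the median of mt-Nd2, 0.968 within MS, 0.734 within SR, 0.960 within the lower range of animal numbers (sets A, B, D, E and F) and 0.959 within the upper range (sets C and G). For mt-Nd5 and mt-Nd6, r was 0.621 and rho 0.621 (permutation p = 0.0039 and 0.00431, adjusted 0.00745 and 0.0101). This relation was 0.862 without the 2 farthest mice, 0.230 within MS, 0.681 within SR, 0.857 in the lower range and 0.0138 in the upper range, so it did not hold in the sets that include C1. The lowest r of the 21 pairs was that of mt-Nd3 and mt-Nd5, with r = 0.0730 and rho = 0.0737 (permutation p = 0.758 for both, adjusted 0.758 and 0.796). For mt-Nd3 and mt-Nd5, r was -0.17 without the 2 farthest mice, 0.270 within MS, 0.170 within SR, 0.237 in the lower range and -0.15 in the upper range.

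Among 15855 genes with a mean of at least 1 CPM, the 5 outside the mitochondrial genome whose log2 CPM had the highest correlation with the mean of the 7 over the 20 mice were Gm10925 (r = 0.929), Gm28439 (r = 0.916), Elmod3 (r = 0.859), Wiz (r = 0.814) and Timm44 (r = 0.807). Gm10925 and Gm28439 are nuclear copies of mitochondrial sequence, identical to mt-Atp6 over 678 bases and to mt-Nd4 over 876 bases. Reads matching both places were counted at each, as described below, so the r of Gm28439 was partly fixed by reads shared with mt-Nd4. Timm44 encodes a part of the import motor of the inner membrane.

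The difference between MS and SR was computed within each range of animal numbers. In the lower range (5 MS and 9 SR mice) the log2 fold changes ran from -0.37 for mt-Nd6 to -0.02 for mt-Nd3. In the upper range (3 MS and 3 SR mice) they ran from -0.18 for mt-Nd5 to 0.18 for mt-Nd3, with -0.14 for mt-Nd6. The interaction of rearing with range passed the threshold for none of the 7 mRNAs (edgeR adjusted p between 0.626 and 0.969) and for 0 of all 18146 genes, of which 1573 had an unadjusted p under 0.05.

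The other products of the mitochondrial genome were set beside the ND mRNAs. All 6 other mRNAs had lower means in MS (median log2 fold change -0.12) and edgeR called none at an adjusted p under 0.05, with 2 at an unadjusted p under 0.05. These were mt-Cytb, of complex III (log2 fold change -0.15, SE 0.0520, edgeR adjusted p = 0.247), and mt-Atp6, of the ATP synthase (-0.16, SE 0.0607, adjusted p = 0.300). The 2 rRNAs did not share the sign, with 0.03 for mt-Rnr1 (SE 0.0726) and 0.14 for mt-Rnr2 (SE 0.0586, edgeR adjusted p = 0.375). Counts of rRNA per 100 counts of the 13 mRNAs were 10.8 ± 1.44 in MS (SD, n = 8) and 9.25 ± 0.501 in SR (n = 12), and were highest in A1 and C1 at 12.9 each. Since poly-A RNA was selected, a change in the level of an mRNA and a change in its tail cannot be told apart, and neither can fewer mitochondria-rich cells and less RNA per cell.

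The nuclear side of complex I had the opposite sign. Of 37 nuclear subunit mRNAs, 35 had higher means in MS, with a median log2 fold change of 0.14. edgeR called none of the 37, and 20 were higher at an unadjusted p under 0.05, beside 6.62% of all genes. DESeq2 called 1 of the 37 higher, beside 76 of the 15351 genes it gave an adjusted p. Without C3, edgeR called 6 of the 37, beside 109 of all 18280 genes (96 higher and 13 lower). Without C2 it called 1, beside 109 of all 18266 genes (52 higher and 57 lower). Without set C it called 13, beside 340 of all 18561 genes (211 higher and 129 lower). The smallest p was that of Ndufa2, an accessory subunit (0.52, SE 0.111, edgeR adjusted p = 0.111), and Ndufa10, another accessory subunit, had the smaller p of the 2 with lower means (-0.01, SE 0.0399, adjusted p = 0.945). Of 15 assembly factors tested, 9 had higher and 6 lower means (median 0.04), and 1 was higher at an unadjusted p under 0.05 (edgeR), a share close to the background of 6.62%. The smallest p among those higher was that of Ndufaf1, which joins early membrane-arm intermediates (0.17, SE 0.0591, edgeR adjusted p = 0.269), and among those lower that of Ecsit, a partner of Ndufaf1 (-0.04, SE 0.0382, edgeR adjusted p = 0.698).

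Of 20 factors of mitochondrial RNA synthesis, processing and decay, 10 had higher and 10 lower means in MS (median 0.01), and edgeR called none, with 1 higher at an unadjusted p under 0.05, a share no larger than the background of 6.62%. The smallest p among those higher was that of Fastkd2, which binds mitochondrial RNA and acts in ribosome assembly (0.19, SE 0.0552, edgeR adjusted p = 0.189). Pnpt1, a subunit of the mitochondrial RNA-degrading complex, had the smallest p among those lower (-0.12, SE 0.0608, edgeR adjusted p = 0.443). Polrmt, the mitochondrial RNA polymerase, had -0.04 (SE 0.0416, edgeR adjusted p = 0.783), and Lrpprc, which stabilises mitochondrial mRNAs, had -0.00259 (SE 0.0454, adjusted p = 0.991).

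Reads from mitochondrial mRNAs were also counted elsewhere. A copy of mitochondrial DNA on chromosome 1 holds Gm28439 (24611535 to 24612410), identical to bases 1 to 876 of mt-Nd4, Gm10222 (24612407 to 24612700), identical to mt-Nd4l over 294 bases, and Gm28438 (24612775 to 24613119), which matches mt-Nd3 in 344 of 345 bases. Over the 21 libraries, the counts of Gm10222 were 0.988 to 0.993 of those of mt-Nd4l, and those of Gm28438 were 0.905 to 0.940 of those of mt-Nd3. Reads matching both places were thus counted at each, and the 2 sources cannot be told apart for mt-Nd3 and mt-Nd4l. For mt-Nd4, the counts beyond those of Gm28439 gave a log2 difference of -0.18 and those of Gm28439 one of -0.19, a split made after the counts were seen.

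Strand was not used in the counting, by the following measure. Of 166 listed genes wholly covered by exons of a gene on the opposite strand, 165 had 0 counts in all 21 libraries, although the covering gene had over 1 count per base in total. The same held for 306 of 307 genes covered on the same strand. Reads that touched the 7 or the 14 shared bases were therefore lost to all 4 genes, and the counts of mt-Nd6 cannot be told apart from reads of heavy-strand RNA that crosses it.

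Of the marker lists, that of the choroid plexus had the largest difference. All 8 of its genes had higher means in MS (median log2 fold change 0.90, 0 called by edgeR and 0 at an unadjusted p under 0.05), and their summed level was 53.1 to 4230 CPM in MS mice (median 3341) and 28.9 to 4562 CPM in SR mice (median 843). With the choroid plexus score of each mouse as a term, the log2 fold change was -0.17 for mt-Nd4, -0.22 for mt-Nd5 and -0.27 for mt-Nd6, and 0 of the 7 were called. In the other 9 marker lists edgeR called 0 genes, with 0 at an unadjusted p under 0.05. Their median log2 fold changes were highest for the 7 striatal genes (0.48, 7 of 7 higher) and the 4 haemoglobin genes (0.25, 4 of 4 higher) and lay between -0.10 and 0.08 for the rest. The summed level of the striatal genes was 81.9 to 680 CPM in MS mice (median 120) and 88.1 to 425 CPM in SR mice (median 107), so the medians lay close together. The part of these cell types in the values of the ND mRNAs was not tested beyond the choroid plexus term. The 4 dentate granule markers and the 4 markers of CA pyramidal cells were above 0 in all 20 mice, with summed levels of 254 to 471 and 291 to 516 CPM in MS and 264 to 526 and 304 to 576 CPM in SR. Presence alone does not set a library apart. The left-out A2 also held Prox1 (20.4 CPM, 70.3 to 156 in the rest) and Neurod6 (44.7 CPM, 98.4 to 198 in the rest).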

How the data were processed

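Hippocampal poly-A RNA of 9 MS and 12 SR mice was sequenced on a NovaSeq6000 as paired-end reads. Reads were mapped by the authors to GRCm38 (STAR 2.7.3a) and assigned to genes (featureCounts), and they deposited raw counts per Ensembl gene, without normalization. Whether strand was used is not given in the sources used here. Groups were taken from the treatment label. The authors removed 1 outlier by PCA, and the MS library farthest out on the first component (A2) was left out here. After TMM scaling and filterByExpr at a minimum count of 10, MS and SR were compared with the robust quasi-likelihood test of edgeR 4.0.16 (R 4.3.3), and p-values were adjusted over 18146 genes (Benjamini-Hochberg, threshold 0.05). A standard error is the size of the log2 fold change over the square root of F. Log2 CPM used a prior count of 2. DESeq2 1.42.0, limma 3.58.1, other scalings, filters, covariates and omitted libraries or sets were alternatives. Ratios were compared by exact permutation over mice with SciPy and NumPy, and correlations by 100000 permutations. Annotation was GENCODE M21, with nuclear copies aligned by BLAST+ and overlaps found by bedtools. The computations were tested on simulated data. All 7 mRNAs were named, with the other mitochondrial genes, overlapping genes and copies, the gene of smallest p in each direction of each pathway list, and the 5 genes of highest correlation. Polrmt and Lrpprc were added after their values were seen. The mRNAs and lists were chosen with earlier results of these data known. Total counts were 17276810 to 30449055 per library. Of the listed assembly factors, Coa1 was not matched.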

Additional observations from a re-analysis of the deposited data

Results flagged for a closer look

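For mt-Nd4, the level in MS mouse C2 was 5775 CPM, far from the other 7 MS mice. The gap to the next mouse was 0.532 of the range of the group, above Dixon's 95% critical value for 8 samples. Of the 12 groups of values tested in this way (MS only, since the 12 SR mice are too many for the test), 1 passed, and chance passes about 1 in 20.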

How the results depend on the processing

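The signs of mt-Nd1, mt-Nd2, mt-Nd4, mt-Nd5 and mt-Nd6 were negative under all 41 alternatives, which were not independent of each other. By edgeR 0 of the 7 mRNAs were called under every scaling, filter and covariate tried, with all 21 libraries, with limma-voom and the set as a random block, and with counts summed within sets. The calls depended on the tool and on which MS mice entered. The Wald test of DESeq2 called 3 of the 7 (mt-Nd4 -0.20, mt-Nd5 -0.23 and mt-Nd6 -0.28 on the log2 scale) and 119 of all genes, and with all 21 libraries, an alternative added after seeing the data, it called 72 genes and 0 of the 7. Without set C, 5 of the 7 and 340 of all genes were called, with log2 fold changes of -0.15 for mt-Nd1, -0.27 for mt-Nd2, -0.27 for mt-Nd4, -0.26 for mt-Nd5 and -0.37 for mt-Nd6, and mt-Nd3 turned to -0.0110. Without MS mice A1 and C1, also added after seeing the data, mt-Nd4l turned to 0.0156, the difference in the ratio of mt-Nd5 to mt-Nd1 shrank to -0.0493 and that of mt-Nd6 to mt-Nd5 widened to -0.18. The causes of these changes were not tested.

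With each mouse left out in turn, the log2 fold change ranged from -0.25 to -0.14 for mt-Nd2, from -0.25 to -0.16 for mt-Nd4, from -0.27 to -0.18 for mt-Nd5 and from -0.34 to -0.25 for mt-Nd6, where A1 gave the value nearest to 0. mt-Nd1 ranged from -0.14 to -0.0842. Of the shortest mRNAs, both moved by more than 1.5 times: mt-Nd3 from 0.00395 without C2 to 0.0904 without C3 (0.0256 without C1), and mt-Nd4l from -0.164 without C2 to -0.0499 without C1 (-0.0653 without A1). The number of the 7 called ranged from 0 to 4, that of all genes from 0 to 109 (109 without C2 and 109 without C3), and the ratio of mt-Nd6 to mt-Nd5 from -0.14 without C1 to -0.0110 without C3. Over the whole table, where 2 genes were called, edgeR called 1 gene with all 21 libraries, without a filter and without set G. It called 0 genes with the choroid plexus score, with summed sets, without set A, B, D or F and without A1 and C1, and limma-voom with the set as a block called 0. The summed level of the 7 mRNAs, a log2 ratio of MS to SR means, moved to -0.0623 as a share of the 13 mitochondrial mRNAs. No paired analysis was made, because each nest went to a single group and the labels match no MS mouse to an SR mouse. Counts of the ND mRNAs were high enough that the spread between mice, not depth, set the error, while the number of sets and the reads shared with nuclear copies limit what can be said of single genes.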
